A study of Mus musculus with 12 samples.

Results

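The mouse genes numbered Zfp930 to Zfp995 encode zinc finger proteins, most of which carry a KRAB (Krüppel-associated box) domain near the amino end and a row of C2H2 fingers toward the carboxyl end. The members were chosen by name: every protein-coding gene of the count table whose symbol is Zfp followed by a 3-digit number that starts with 9, with Zfp981, Zfp991, Zfp937 and Zfp951 left out, which gave 59 genes of the 21959 in the table. The names alone do not set the 4 left-out genes apart. All 4 were called at 100 and at 200 mg/kg, with log2 fold changes over saline at 200 mg/kg of -2.83 for Zfp951, 0.90 for Zfp937, 3.01 for Zfp991 and 4.22 for Zfp981, so the members lack 4 genes of the range that differed between groups, and their counts are also given with these genes added. The libraries came from whole testis of male ICR mice, an outbred strain, all of wild type genotype and 9 months old at collection. The 4 groups were saline, and blueberry extract at 50, 100 and 200 mg/kg per day, all given daily into the stomach by gavage, with 3 polyA RNA libraries per group and 1 batch label for all. All groups were of 1 age, so no comparison here is between ages, and the sources used here do not say whether the libraries of a group came from separate mice. Whether the p-values reflect variation among mice or technical variation is thus not known.

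C2H2 fingers read DNA, each finger contacting a short run of bases. The KRAB domain binds TRIM28 (also KAP1), which brings the histone methyltransferase SETDB1 and leads to H3K9 trimethylation and silencing at the bound site. Many proteins of this family bind retrotransposons, and in mouse embryonic stem cells deletion of the gene clusters on chromosomes 2 and 4 that hold many of these genes is known to release some retrotransposon families. For most of the members named below no role in the testis is known to a degree that can be stated here, so they are described by where they lie and what their proteins contain.

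The label was checked against the coding sequences of GENCODE M21, translated from the GRCm38 genome. A C2H2 finger pattern matched at least once in all but 3 of the 59 members, with a median of 11 fingers and a maximum of 21, in Zfp974. A KRAB-like stretch, defined by a short amino acid pattern, was found in 50 members and not in 9. A missed match says only that this pattern was not met. The members lie on 12 chromosomes and most sit in clusters of neighbouring genes, joined here where members lay within 1 Mb of each other. The cluster on chromosome 4 (145510759 to 147848366) held 14 members, that on chromosome 2 (175372436 to 178078476) held 10, that on chromosome 17 (21567008 to 22867134) held 10, and that on chromosome 7 (42579783 to 43192109) held 4.

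Promoter windows from RefSeq (GRCm38.p6), running from 250 bases before to 50 bases after the start of transcription, were found for 50 of the 59 members. They are shown because some neighbouring members start from near-copies of the same sequence, of which some changed alike and others did not. The windows of Zfp993, Zfp936 and Zfp935 lie 63361 to 98112 bases from the GENCODE start and are not printed, but they are among the 50. Over all 1225 pairs of windows the median identity in a global alignment was 49.2%, while 54 pairs reached 70%. In 52 of those pairs both windows lay near the GENCODE start. Both genes were tested in 9 of the 52 pairs, and in 4 of the 9 the genes had the same calls in all 3 comparisons with saline, while in 5 they did not. The 9 pairs are not independent, since genes recur in them. Zfp970, Zfp971 and Zfp931 on chromosome 2 pair with each other and had the same calls. Most pairs with different calls are among Zfp979, Zfp980, Zfp982 and Zfp984. The windows below carry in capitals every match to CCAAT and GGGCGG on either strand (so also ATTGG and CCGCCC). Those of 4 members of the chromosome 4 cluster come first. The windows of Zfp979 and Zfp980 were 89.8% identical. They were 85.9% and 85.2% identical to that of Zfp982, whereas Zfp984 and Zfp982 shared 73.4%. In all 4 of them a CCAAT match on the other strand runs into a GGGCGG match.
Zfp979, chr4:147642459-147642758, minus strand: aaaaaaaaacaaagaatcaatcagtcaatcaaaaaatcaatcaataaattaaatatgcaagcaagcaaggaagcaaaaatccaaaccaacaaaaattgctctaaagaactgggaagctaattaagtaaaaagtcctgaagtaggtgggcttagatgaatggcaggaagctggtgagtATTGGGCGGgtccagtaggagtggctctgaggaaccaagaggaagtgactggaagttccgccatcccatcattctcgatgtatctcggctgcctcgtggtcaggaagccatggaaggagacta
Zfp980, chr4:145670447-145670746, plus strand: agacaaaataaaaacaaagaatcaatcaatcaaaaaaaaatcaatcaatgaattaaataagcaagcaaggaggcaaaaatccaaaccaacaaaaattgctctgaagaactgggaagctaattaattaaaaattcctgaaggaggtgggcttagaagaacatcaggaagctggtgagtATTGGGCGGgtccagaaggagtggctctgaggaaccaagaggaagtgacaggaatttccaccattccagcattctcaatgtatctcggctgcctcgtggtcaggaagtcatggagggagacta
Zfp982, chr4:147492167-147492466, plus strand: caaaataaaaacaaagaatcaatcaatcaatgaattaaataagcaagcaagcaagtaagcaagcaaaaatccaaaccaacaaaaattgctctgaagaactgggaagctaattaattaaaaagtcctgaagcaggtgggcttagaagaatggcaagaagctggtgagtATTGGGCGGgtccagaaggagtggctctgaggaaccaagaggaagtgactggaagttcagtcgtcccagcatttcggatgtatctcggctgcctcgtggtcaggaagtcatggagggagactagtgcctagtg
Zfp984, chr4:147809739-147810038, minus strand: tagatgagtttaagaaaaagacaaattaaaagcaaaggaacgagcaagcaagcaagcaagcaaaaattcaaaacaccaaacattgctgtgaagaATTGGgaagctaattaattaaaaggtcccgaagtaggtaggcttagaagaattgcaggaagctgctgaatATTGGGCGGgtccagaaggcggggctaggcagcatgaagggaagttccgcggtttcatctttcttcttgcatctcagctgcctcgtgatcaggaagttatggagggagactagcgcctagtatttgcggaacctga
Zfp976 and Zfp977, neighbours on chromosome 7 whose windows were 81.4% identical, were both lower at 100 mg/kg.
Zfp976, chr7:42642555-42642854, minus strand: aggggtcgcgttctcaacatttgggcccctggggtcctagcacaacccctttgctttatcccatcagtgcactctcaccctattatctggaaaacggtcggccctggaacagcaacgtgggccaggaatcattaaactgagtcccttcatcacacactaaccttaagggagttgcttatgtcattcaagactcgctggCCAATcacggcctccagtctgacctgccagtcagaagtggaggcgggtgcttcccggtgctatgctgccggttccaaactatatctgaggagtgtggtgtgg
Zfp977, chr7:42592496-42592795, minus strand: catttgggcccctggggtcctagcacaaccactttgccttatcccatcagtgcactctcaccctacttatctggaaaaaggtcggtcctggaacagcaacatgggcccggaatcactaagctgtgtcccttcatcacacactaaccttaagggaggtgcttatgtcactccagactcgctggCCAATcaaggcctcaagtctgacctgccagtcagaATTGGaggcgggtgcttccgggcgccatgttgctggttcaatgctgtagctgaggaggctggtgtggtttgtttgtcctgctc
Zfp942 and Zfp944 on chromosome 17 were 84.3% identical in this window. Zfp943 starts 95 bases from Zfp942 in the opposite direction, so that 194 bases (chr17:21962415-21962608) belong to both windows, read on opposite strands.
Zfp942, chr17:21962415-21962714, minus strand: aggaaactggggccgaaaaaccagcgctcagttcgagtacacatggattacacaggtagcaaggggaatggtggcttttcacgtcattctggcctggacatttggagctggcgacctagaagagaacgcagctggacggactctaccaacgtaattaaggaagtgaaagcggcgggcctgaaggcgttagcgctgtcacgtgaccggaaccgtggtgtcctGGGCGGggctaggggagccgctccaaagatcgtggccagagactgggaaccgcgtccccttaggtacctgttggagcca
Zfp944, chr17:22361351-22361650, minus strand: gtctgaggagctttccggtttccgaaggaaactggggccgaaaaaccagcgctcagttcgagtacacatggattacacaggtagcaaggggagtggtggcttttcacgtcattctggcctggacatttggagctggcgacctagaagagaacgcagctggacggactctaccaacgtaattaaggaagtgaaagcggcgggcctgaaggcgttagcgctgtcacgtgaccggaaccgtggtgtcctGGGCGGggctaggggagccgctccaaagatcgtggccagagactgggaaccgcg
Zfp943, chr17:21962309-21962608, plus strand: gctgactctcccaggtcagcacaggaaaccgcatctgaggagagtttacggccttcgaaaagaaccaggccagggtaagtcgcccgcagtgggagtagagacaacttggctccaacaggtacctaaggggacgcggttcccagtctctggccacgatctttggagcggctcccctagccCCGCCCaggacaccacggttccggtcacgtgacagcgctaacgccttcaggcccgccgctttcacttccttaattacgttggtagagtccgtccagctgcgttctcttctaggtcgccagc

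CCAAT was present in 37 of the 50 members' windows (74%) and in 37.4% of all 32851 windows of the RefSeq table. GGGCGG was present in 17 of 50 (34%), against 35.7% of all windows. TATAAA was in 0 of 50, against 13.6%, and TGACGTCA in 1 of 50 (2%), against 1.79%. Since windows of 1 cluster are partly copies of each other, these 50 are not independent, and the shares are descriptions without a test. Without the 3 windows far from the GENCODE start, CCAAT was in 35 of 47 (74.5%) and GGGCGG in 17 of 47 (36.2%). Of those 47, the windows of members lower at 100 mg/kg held CCAAT in 13 of 19, and those of tested members not called there in 13 of 19.

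The levels that follow (CPM) are read counts scaled to the library's total after the count filter, multiplied by its TMM normalization factor. Comparisons between genes are given per kilobase of exon. Library totals ran from 14382378 to 19118265 counts. Within groups, chi-square values of pairs of libraries, divided by their degrees of freedom, were 1.60 to 3.07, except that library 3 at 100 mg/kg differed from libraries 1 and 2 of its group by 12.2 and 8.06. The calls, cluster counts and list counts at that dose were therefore repeated without it. All 9 spermatocyte, 7 round spermatid and 8 elongating spermatid markers of the lists used here passed the count filter, as did 2 of 6 epididymis genes. The summed level of these 6 was 7.81 to 8.38 CPM in saline, 6.37 to 6.79 at 50 mg/kg, 8.97 to 10.9 at 100 mg/kg and 4.52 to 4.80 at 200 mg/kg, with Lcn8 at 0 in every library, and their part in the results was not tested.

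Of the 59 members, 45 passed the count filter and entered the test, and 14 did not. The sum of all members' CPM was 362 to 369 in saline libraries, 369 to 392 at 50 mg/kg, 289 to 302 at 100 mg/kg and 347 to 361 at 200 mg/kg, so the libraries at 100 mg/kg lay below every other library. In bulk tissue, fewer cells of a type and less RNA per cell cannot be told apart. Zfp956, on chromosome 6, alone gave 25.7 to 35.7% of the members' CPM in each library. Per kilobase its mean in saline was 39.4 CPM, ahead of 9.05 for Zfp944, 8.30 for Zfp990 and 6.33 for Zfp982, and the lowest tested member was Zfp980 with 0.0294.

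A gene was called higher or lower where edgeR's quasi-likelihood test gave a Benjamini-Hochberg adjusted p under 0.05, adjusted over all 15682 genes tested. Fold changes are on the log2 scale, dose over saline, and are given ± the standard error of the fit, with 3 libraries in each group. At 50 mg/kg against saline, 8 of 45 members were called, 6 higher and 2 lower, where 17.2% of all genes were called (9.21% higher and 8.02% lower). Libraries of the groups did not overlap for 20 members at 50 mg/kg (37.6% of all genes), 28 at 100 mg/kg (58.7%) and 15 at 200 mg/kg (39.2%). At 100 mg/kg, 24 members were called, 2 higher and 22 lower, where 52.4% of all genes were called (25.6% higher and 26.8% lower). At 200 mg/kg, 11 members were called, 6 higher and 5 lower, where 18.6% of all genes were called (10.3% higher and 8.3% lower). The count at 50 mg/kg depended on single libraries: it was 4 without saline library 1, 5 without saline library 3, 4 without library 2 or library 3 at 50 mg/kg, and 5 without library 3 at 200 mg/kg. Calls over all genes fell as well. They were 1444 higher and 1257 lower in the main fit. Without saline library 1 they were 1041 and 986, and without saline library 3 they were 952 and 762. Without library 2 at 50 mg/kg they were 1006 and 805, and without library 3 there 969 and 745. Without library 3 at 200 mg/kg they were 1250 and 1253. The count of members at 50 mg/kg was higher, at 12, without library 3 at 100 mg/kg, and 10 without library 1 at 100 mg/kg. Calls over all genes were then 2093 and 1920, and 1630 and 1442. Without library 3 at 100 mg/kg, 13 members were called at 200 mg/kg against saline, with 2194 higher and 1987 lower over all genes. The main fit gave 11 members there, with 1612 and 1302 over all genes. The share of members called at 50 and 100 mg/kg was thus close to that of all genes, and at 100 mg/kg 22 of the 24 called members were lower, where the calls over all genes were divided almost equally. Without library 3 of that group the count at 100 mg/kg was again 2 higher and 22 lower, with a median log2 fold change of -0.40. In that fit 23 of the 24 called members remained, Zfp995 was lost (adjusted p = 0.0668) and Zfp936 was gained as lower (adjusted p = 0.0198). All 24 kept their sign, and their log2 fold changes moved by a median of 0.0916 and by at most 0.451, for Zfp931. With the 4 left-out genes added, a count chosen after seeing the data, 7 of 49 genes were higher and 3 lower at 50 mg/kg, 4 higher and 24 lower at 100 mg/kg, with 9 higher and 6 lower at 200 mg/kg. The median log2 fold change of the 45 members was 0.05 at 50 mg/kg, -0.40 at 100 mg/kg and 0.04 at 200 mg/kg, while over all genes it was -0.0006, 0.0086 and -0.0013. Of the 276 other tested Zfp genes, 31 were higher and 99 lower at 100 mg/kg, with a median of -0.16. The 3 comparisons share the saline libraries.

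**Figure D1:**
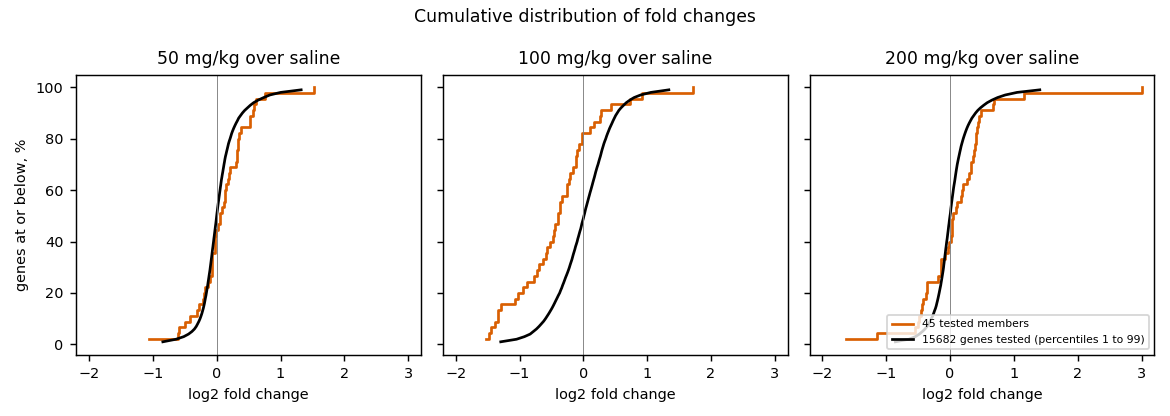
Cumulative share of genes (vertical axis, %) at or below each log2 fold change (horizontal axis) for the 45 tested members and for all 15682 genes tested, at 50, 100 and 200 mg/kg over saline. At 100 mg/kg the members' curve lies to the left of that of all genes, with medians of -0.40 and 0.01; at 50 and 200 mg/kg the members' medians are 0.05 and 0.04.

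At 100 mg/kg, fold changes over all genes also followed transcript length, with a rank correlation across genes of -0.489 over 15653 genes, against 0.0332 at 50 mg/kg and 0.135 at 200 mg/kg; since genes share libraries, this is a description. The members' median transcript was 2764 bases and that of all tested genes 3057. The 6174 genes with transcripts of 2000 to 4000 bases had a median log2 fold change of 0.01 at 100 mg/kg. After a length trend was taken out of each library, 2 members were higher and 21 lower at 100 mg/kg with a median of -0.34. Of the other Zfp genes 48 were higher and 70 lower with a median of -0.06. Over all 15682 genes that fit called 3587 higher and 3501 lower, with a median of 0.01.

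**Figure D2:**
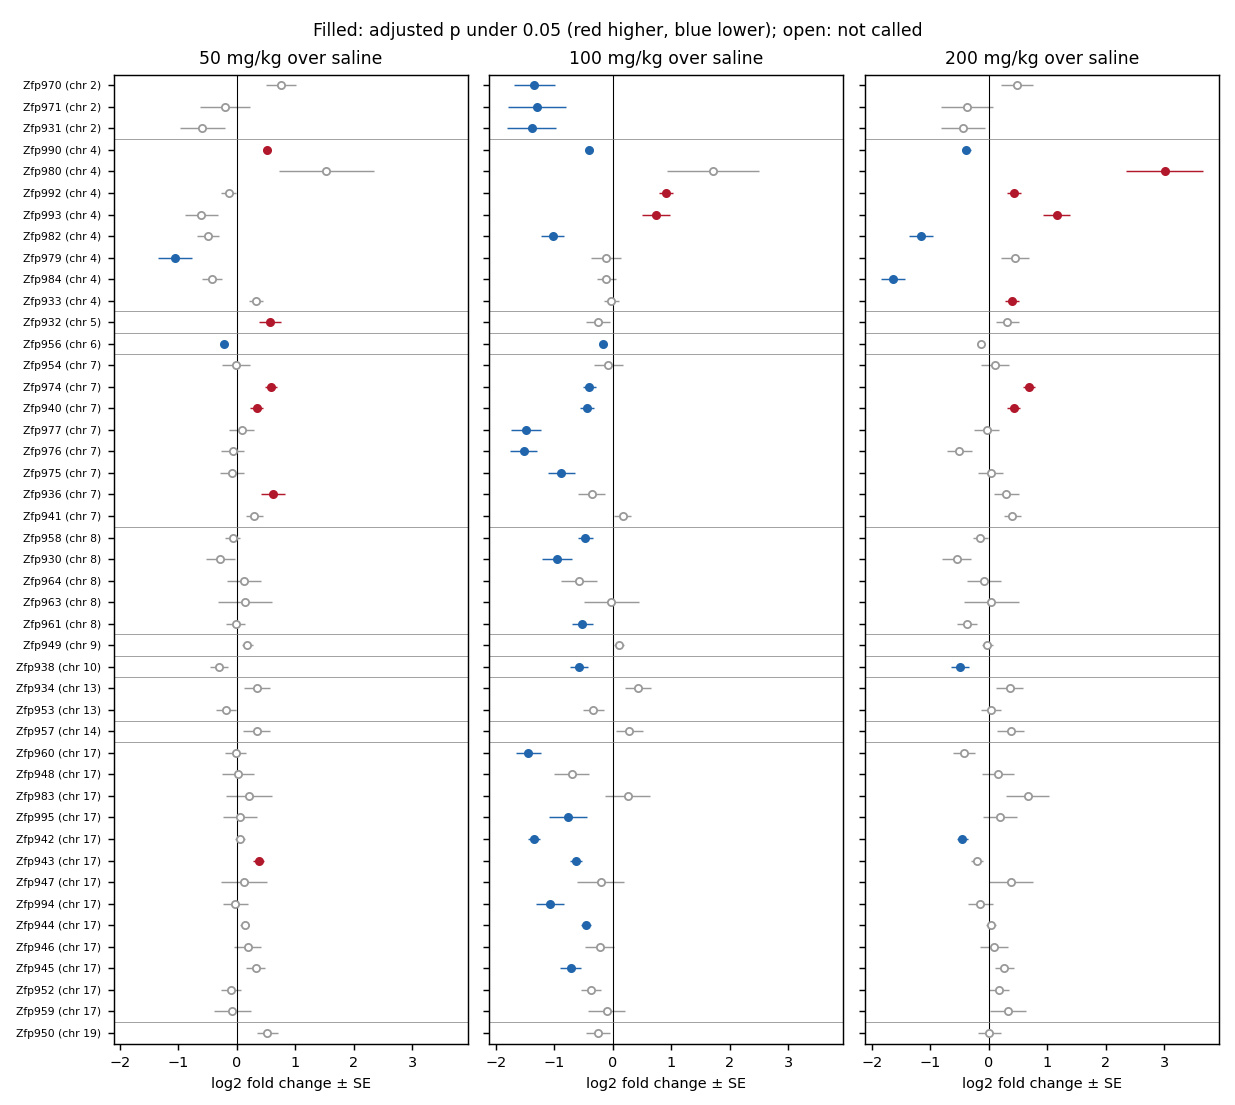
Log2 fold change with its standard error (horizontal axis) of each of the 45 tested members (rows, by chromosome and position) at 50, 100 and 200 mg/kg over saline; filled points are called, red higher and blue lower, and open points are not. At 100 mg/kg 22 of the 24 filled points are blue, and at 200 mg/kg 7 of the 11 filled points belong to chromosome 4.

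The 10 members of the chromosome 17 cluster were all tested, and at 100 mg/kg 6 were lower, 0 higher and 4 not called, with a median log2 fold change of -0.67. These 60% are near the 52.4% of all genes called at that dose in either direction, while 26.8% of all genes were lower. Without library 3 at 100 mg/kg 5 of the 10 were lower. At 50 mg/kg 1 of the 10 was higher (9.21% of all genes), and at 200 mg/kg 1 was lower (8.3%). Zfp942 (ENSMUSG00000071267, chr17:21926960-21962464, minus strand) encodes 11 fingers and a KRAB-like stretch. It had 22.0, 22.1 and 22.8 CPM in the saline libraries, 19.2, 25.2 and 24.8 at 50 mg/kg, 8.25, 9.49 and 8.60 at 100 mg/kg, with 16.2, 16.8 and 16 at 200 mg/kg. All libraries at 100 mg/kg lay below all others, and the libraries at 200 mg/kg were below every saline library. Zfp942 fell at 100 mg/kg with a log2 fold change of -1.34 ± 0.10 (adjusted p = 3.35e-10), and at 200 mg/kg with a log2 fold change of -0.45 ± 0.09 (adjusted p = 0.00155). Its head-to-head neighbour Zfp943 (ENSMUSG00000053347, chr17:21962552-22071168, plus strand) also encodes 11 fingers. It had 17.6, 16.3 and 14.7 CPM in the saline libraries, 18.3, 21.4 and 23.0 at 50 mg/kg, 11.5, 9.39 and 10.5 at 100 mg/kg, with 14.7, 13.4 and 14.2 at 200 mg/kg. The groups at 50 and at 100 mg/kg each lay apart from saline, on opposite sides. Zfp943 rose at 50 mg/kg with a log2 fold change of 0.37 ± 0.10 (adjusted p = 0.00957). The adjusted p was 0.0705 without saline library 3 and 0.0843 without library 3 at 50 mg/kg. It fell at 100 mg/kg with a log2 fold change of -0.63 ± 0.11 (adjusted p = 2.48e-05), and at 200 mg/kg it was not called. These members, which start 95 bases apart, were both lower at 100 mg/kg, and were called separately at 50 mg/kg (Zfp943) and at 200 mg/kg (Zfp942).

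Zfp944 (ENSMUSG00000033972, chr17:22337989-22361400, minus strand) has the promoter window that resembles that of Zfp942. Zfp944 had 23.9, 23.4 and 28.3 CPM in the saline libraries, 26.5, 29.9 and 26.4 at 50 mg/kg, 18.3, 19.7 and 16.7 at 100 mg/kg, with 24.9, 25.6 and 26.7 at 200 mg/kg. Its libraries overlapped between saline, 50 and 200 mg/kg, and those at 100 mg/kg were below all of them. It fell there with a log2 fold change of -0.46 ± 0.09 (adjusted p = 9.86e-05). Zfp994 (ENSMUSG00000096433, chr17:22197265-22225616, minus strand) encodes 17 fingers. It had 3.37, 3.65 and 4.87 CPM in the saline libraries, 4.68, 4.58 and 2.59 at 50 mg/kg, 1.42, 2.32 and 1.85 at 100 mg/kg, with 3.12, 3.69 and 3.93 at 200 mg/kg. The libraries at 100 mg/kg lay below all others, and Zfp994 fell there with a log2 fold change of -1.07 ± 0.24 (adjusted p = 0.000511). Zfp945 (ENSMUSG00000059142, chr17:22846697-22867134, minus strand) encodes 18 fingers and has a longest coding transcript of 6618 bases. It had 4.29, 3.31 and 4.51 CPM in the saline libraries, 4.62, 4.95 and 5.49 at 50 mg/kg, 2.61, 2.69 and 1.98 at 100 mg/kg, with 4.86, 5.29 and 4.43 at 200 mg/kg. The libraries at 100 mg/kg were below all others, with a log2 fold change of -0.72 ± 0.18 (adjusted p = 0.00166); after the length correction the adjusted p was 0.0591. Zfp995 was lower at 100 mg/kg with a log2 fold change of -0.77 ± 0.32 (adjusted p = 0.0478), but its libraries there overlapped saline, and the call was lost in 15 of 21 alternatives, with an adjusted p of up to 0.309. The other 4 members of this cluster, Zfp948, Zfp983, Zfp947 and Zfp946, were called in no comparison with saline.

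**Figure D3:**
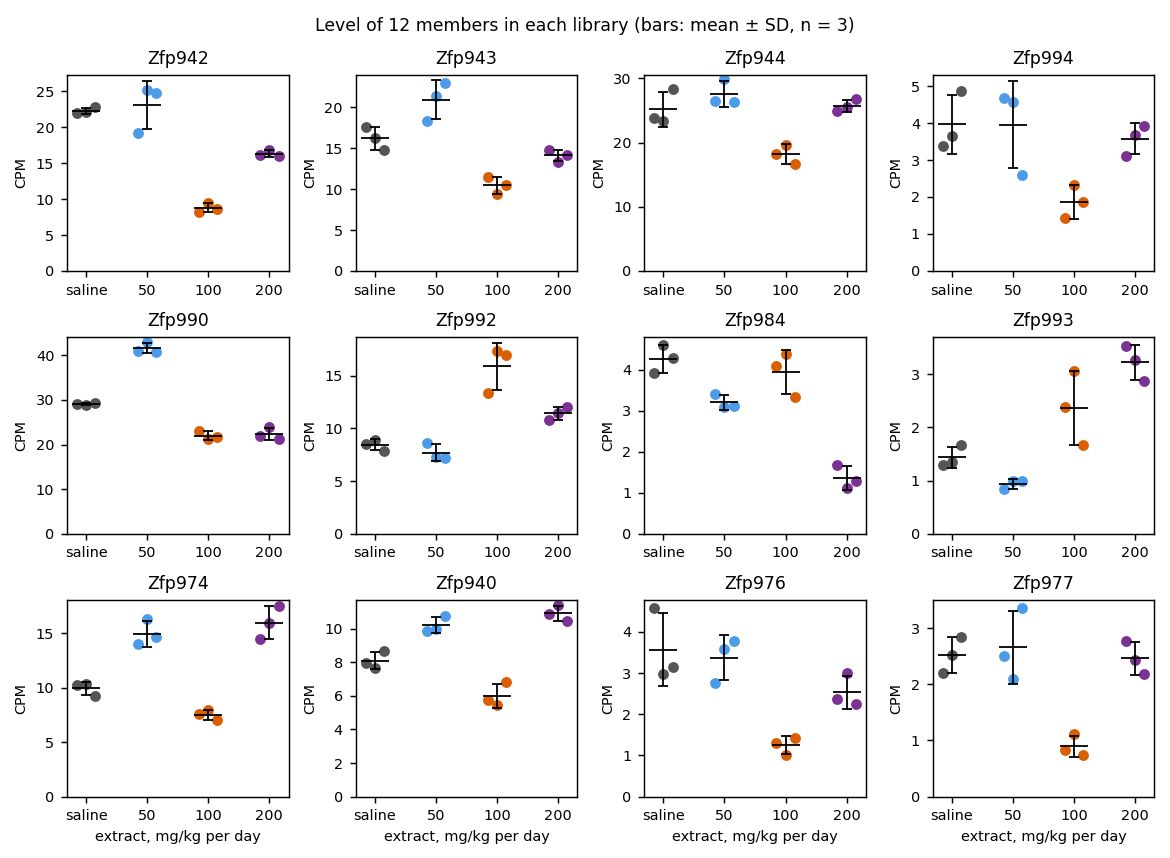
CPM (vertical axis, from 0) of 12 members in each of the 12 libraries by dose (horizontal axis, saline at the left); points are libraries, the horizontal marks and bars are the mean and SD of 3. Zfp942, Zfp944, Zfp994, Zfp976 and Zfp977 are lowest in the libraries at 100 mg/kg, Zfp984 at 200 mg/kg, and Zfp974 and Zfp940 are lowest at 100 mg/kg and highest at 50 and 200 mg/kg.

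Zfp960 (ENSMUSG00000096696, chr17:17064113-17089628, plus strand) lies on chromosome 17 outside that cluster and had 3.31, 2.81 and 3.33 CPM in the saline libraries, 2.82, 3.46 and 3.00 at 50 mg/kg, 1.19, 1.32 and 0.928 at 100 mg/kg, with 2.48, 2.44 and 2.13 at 200 mg/kg. The libraries at 100 mg/kg were below all others, and Zfp960 fell there with a log2 fold change of -1.44 ± 0.22 (adjusted p = 5.16e-06). Of its 50-base transcript windows, 82.7% also occur in another gene, 81.4% in Zfp97, which at 100 mg/kg was not called (log2 fold change -0.62, adjusted p = 0.115). No source used here says how reads were divided between such near-copies.

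Changes in the chromosome 4 cluster went in both directions. Of its 14 members 8 were tested, and all 8 were called in the test of any difference among the 4 groups, where 31 of 45 members and 64.3% of all genes were called. Of the 8, 7 were called at 200 mg/kg, 4 higher and 3 lower. At 100 mg/kg 2 were higher and 2 lower, also without library 3 of that group, and at 50 mg/kg 1 was higher and 1 lower. The cluster's share called was thus 87.5% at 200 mg/kg, 50% at 100 mg/kg and 25% at 50 mg/kg. Over all genes it was 18.6%, 52.4% and 17.2%, so at 100 mg/kg the cluster was close to all genes. Zfp990 (ENSMUSG00000078503, chr4:145510759-145539188, plus strand) encodes 13 fingers. It had 29.0, 28.8 and 29.3 CPM in the saline libraries, 41.0, 42.9 and 40.8 at 50 mg/kg, 23.1, 21.1 and 21.6 at 100 mg/kg, with 22.0, 23.9 and 21.2 at 200 mg/kg. The saline libraries were close to each other, all libraries at 50 mg/kg were above them, and all at 100 and 200 mg/kg were below. Zfp990 rose at 50 mg/kg with a log2 fold change of 0.52 ± 0.07 (adjusted p = 5.04e-06), fell at 100 mg/kg with a log2 fold change of -0.41 ± 0.07 (adjusted p = 3.31e-05) and fell at 200 mg/kg with a log2 fold change of -0.38 ± 0.07 (adjusted p = 0.000422). It was the only member called higher at 50 mg/kg and lower at 200 mg/kg.

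Zfp992 (ENSMUSG00000070605, chr4:146449023-146470292, plus strand) had 8.52, 8.93 and 7.90 CPM in the saline libraries, 8.65, 7.30 and 7.15 at 50 mg/kg, 13.3, 17.4 and 16.9 at 100 mg/kg, with 10.8, 11.5 and 12.0 at 200 mg/kg. Every library at 100 and 200 mg/kg was above every saline library, and those at 50 mg/kg overlapped saline. It rose at 100 mg/kg with a log2 fold change of 0.91 ± 0.11 (adjusted p = 4.22e-07), and at 200 mg/kg with a log2 fold change of 0.44 ± 0.12 (adjusted p = 0.0118). The call at 200 mg/kg was lost without saline library 3 (adjusted p = 0.0624) or library 3 at 200 mg/kg (adjusted p = 0.0659). Zfp993 (ENSMUSG00000063245, chr4:146610961-146658160, plus strand) is a short model with 2 fingers. It had 1.29, 1.35 and 1.66 CPM in the saline libraries, 0.833, 0.990 and 0.984 at 50 mg/kg, 2.37, 3.06 and 1.67 at 100 mg/kg, with 3.53, 3.27 and 2.86 at 200 mg/kg. Libraries at 200 mg/kg were the highest except that 1 at 100 mg/kg, with 3.06 CPM, lay within their range. Zfp993 rose at 100 mg/kg with a log2 fold change of 0.74 ± 0.24 (adjusted p = 0.0128), a call lost after the length correction (adjusted p = 0.116) and without library 2 at 100 mg/kg (adjusted p = 0.13), and rose at 200 mg/kg with a log2 fold change of 1.16 ± 0.23 (adjusted p = 0.000941). Both genes share windows with Zfp991 (37.5% of those of Zfp992 and 81.9% of those of Zfp993), and Zfp991 itself rose at 100 mg/kg (log2 fold change 1.41, adjusted p = 0.000336) and at 200 mg/kg (3.01, adjusted p = 4.84e-09). The part of shared reads in the values of Zfp992 and Zfp993 was not tested.

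Zfp979, Zfp980, Zfp982 and Zfp984, whose promoter windows are printed above, differed in where they changed. Zfp979 (ENSMUSG00000066000, chr4:147611937-147642513, minus strand) encodes 3 fingers. It had 2.70, 1.91 and 1.54 CPM in the saline libraries, 0.897, 0.804 and 1.19 at 50 mg/kg, 1.90, 1.32 and 2.54 at 100 mg/kg, with 2.60, 2.71 and 3.03 at 200 mg/kg. It was called at 50 mg/kg alone, where all libraries lay below saline, with a log2 fold change of -1.06 ± 0.29 (adjusted p = 0.0129). The adjusted p was 0.089 without saline library 1 and 0.0602 without library 2 at 50 mg/kg. Zfp982 (ENSMUSG00000078496, chr4:147492417-147513486, plus strand) encodes 7 fingers. It had 9.19, 10.2 and 8.85 CPM in the saline libraries, 7.43, 6.06 and 6.63 at 50 mg/kg, 7.24, 3.64 and 3.03 at 100 mg/kg, with 3.99, 3.97 and 4.71 at 200 mg/kg. All libraries at 100 and 200 mg/kg lay below saline, although library 1 at 100 mg/kg, with 7.24 CPM, was at about the level of the 50 mg/kg group. Zfp982 fell at 100 mg/kg with a log2 fold change of -1.03 ± 0.20 (adjusted p = 0.000168), and at 200 mg/kg with a log2 fold change of -1.15 ± 0.20 (adjusted p = 0.000366). Zfp984 (ENSMUSG00000078495, chr4:147753974-147809788, minus strand) encodes 11 fingers. It had 3.92, 4.61 and 4.28 CPM in the saline libraries, 3.40, 3.09 and 3.11 at 50 mg/kg, 4.09, 4.38 and 3.34 at 100 mg/kg, with 1.68, 1.11 and 1.29 at 200 mg/kg. It fell at 200 mg/kg alone, where every library was below all libraries of the other groups, with a log2 fold change of -1.63 ± 0.20 (adjusted p = 2.39e-06). Of its windows 46.9% also occur in Gm13212, which was not called at that dose (log2 fold change 0.21, adjusted p = 0.649).

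Zfp980, of which 71.3% of the windows occur in another gene, had few reads: 0, 1 and 5 counts in saline libraries, 3, 12 and 3 at 50 mg/kg, 6, 8 and 7 at 100 mg/kg, with 11, 22 and 16 at 200 mg/kg. The libraries at 200 mg/kg were above every saline library, and the fitted change there was a log2 fold change of 3.01 ± 0.66 (adjusted p = 0.00236), a size that rests on 6 counts in saline. Zfp933 (ENSMUSG00000059423, chr4:147822986-147848366, minus strand) encodes 12 fingers and shares 1.05% of its windows. It had 7.96, 7.30 and 7.01 CPM in the saline libraries, 9.42, 8.72 and 9.69 at 50 mg/kg, 7.36, 6.17 and 8.47 at 100 mg/kg, with 9.77, 10.2 and 9.60 at 200 mg/kg. It rose at 200 mg/kg, where the libraries lay above saline, with a log2 fold change of 0.41 ± 0.12 (adjusted p = 0.0192). This call was lost in 5 of 22 alternatives, with an adjusted p of up to 0.0825.

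**Figure D4:**
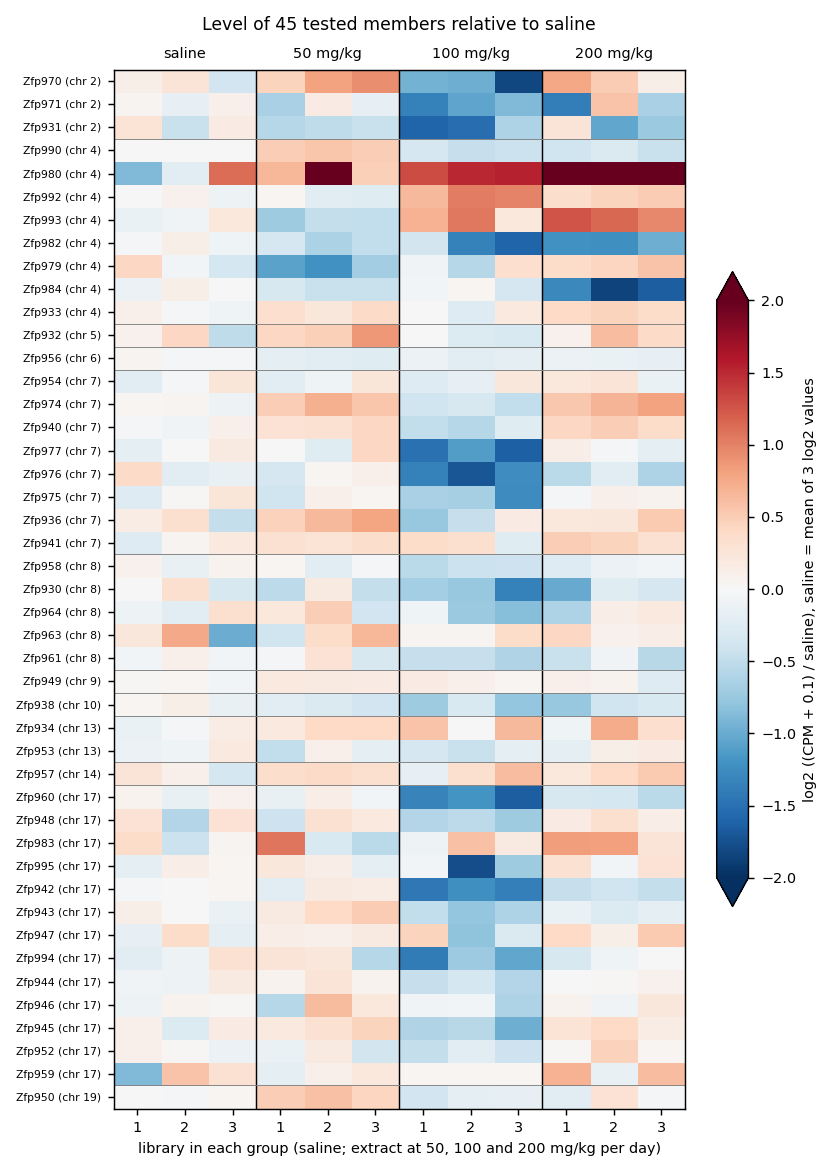
Log2 of each library's CPM plus 0.1, relative to the mean of the saline libraries, for the 45 tested members (rows, by chromosome and position) in the 12 libraries (columns, by dose); colours are limited to 2 on either side of 0. Blue cells prevail at 100 mg/kg on chromosomes 2, 7 and 17, while the members of chromosome 4 hold both colours at 200 mg/kg.

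On chromosome 2 only 3 of the 10 clustered members were tested, and all 3 were lower at 100 mg/kg, with a median log2 fold change of -1.34, where 26.8% of all genes were lower, while by edgeR's test 0 of 3 were called at 50 or 200 mg/kg. Of these 3, 1 had an unadjusted p under 0.05 and was called by limma at 50 mg/kg, and 0 did at 200 mg/kg; DESeq2 called 0 at both doses. Zfp970 (ENSMUSG00000078866, chr2:177464733-177478129, plus strand) encodes 14 fingers. It had 1.47, 1.63 and 1.01 CPM in the saline libraries, 1.86, 2.41 and 2.64 at 50 mg/kg, 0.653, 0.633 and 0.309 at 100 mg/kg, with 2.37, 1.95 and 1.46 at 200 mg/kg. The libraries at 100 mg/kg were below those of all other groups, with a log2 fold change of -1.34 ± 0.35 (adjusted p = 0.00221). Zfp931 fell there with a log2 fold change of -1.39 ± 0.42 (adjusted p = 0.00758), and Zfp971 with a log2 fold change of -1.29 ± 0.50 (adjusted p = 0.0328), a call lost in 5 of 20 alternatives with an adjusted p of up to 0.0862. Without library 3 at 100 mg/kg all 3 of these members were again lower, with a median of -1.43. Zfp970 shares 49.5% of its windows with other genes, Zfp971 51.1% and Zfp931 23.3%.

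On chromosome 7, 3 of the 4 clustered members were lower at 100 mg/kg, with a cluster median of -1.18, where 26.8% of all genes were lower. Without library 3 at 100 mg/kg all 4 were lower, Zfp936 included, with a median of -1.03. Zfp976 (ENSMUSG00000074158, chr7:42609526-42642588, minus strand) encodes 18 fingers. It had 4.59, 2.98 and 3.15 CPM in the saline libraries, 2.76, 3.59 and 3.78 at 50 mg/kg, 1.31, 1.00 and 1.42 at 100 mg/kg, with 2.37, 2.99 and 2.25 at 200 mg/kg. Zfp977 (ENSMUSG00000092335, chr7:42579783-42592547, minus strand) encodes 11 fingers. It had 2.21, 2.53 and 2.85 CPM in the saline libraries, 2.5, 2.10 and 3.37 at 50 mg/kg, 0.831, 1.11 and 0.742 at 100 mg/kg, with 2.77, 2.44 and 2.19 at 200 mg/kg. In both genes the libraries at 100 mg/kg were below those of every other group. Zfp976 fell with a log2 fold change of -1.52 ± 0.24 (adjusted p = 8.27e-06), and Zfp977 with a log2 fold change of -1.48 ± 0.26 (adjusted p = 3.86e-05). The third, Zfp975, fell with a log2 fold change of -0.88 ± 0.23 (adjusted p = 0.0026); it shares 16.1% of its windows with Zfp976. The fourth, Zfp936 (ENSMUSG00000064194, chr7:43114229-43192109, plus strand), had 3.43, 3.88 and 2.20 CPM in the saline libraries, 4.29, 4.89 and 5.39 at 50 mg/kg, 1.78, 2.21 and 3.46 at 100 mg/kg, with 3.58, 3.62 and 4.49 at 200 mg/kg. It rose at 50 mg/kg, where its libraries lay above saline, with a log2 fold change of 0.62 ± 0.21 (adjusted p = 0.041), a call lost in 9 of 22 alternatives with an adjusted p of up to 0.229.

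Zfp974 and Zfp940, on chromosome 7 but outside that cluster, were the only members called higher at 50 mg/kg, lower at 100 mg/kg and higher at 200 mg/kg. Zfp974 (ENSMUSG00000070709, chr7:27907392-27929460, minus strand) had 10.2, 10.3 and 9.27 CPM in the saline libraries, 13.97, 16.3 and 14.6 at 50 mg/kg, 7.54, 7.96 and 7.05 at 100 mg/kg, with 14.4, 15.9 and 17.5 at 200 mg/kg. Its libraries at 50 and 200 mg/kg were all above saline and those at 100 mg/kg all below. It rose at 50 mg/kg with a log2 fold change of 0.59 ± 0.10 (adjusted p = 0.000272) and at 200 mg/kg with a log2 fold change of 0.68 ± 0.10 (adjusted p = 4e-05). Its change at 100 mg/kg, a log2 fold change of -0.40 ± 0.11 (adjusted p = 0.00451), was lost after the length correction (log2 fold change -0.17, adjusted p = 0.215). Zfp940 (ENSMUSG00000050855, chr7:29833620-29853669, minus strand) encodes 10 fingers and shares 1.56% of its windows. Zfp940 had 7.96, 7.70 and 8.67 CPM in the saline libraries, 9.87, 10.0 and 10.8 at 50 mg/kg, 5.76, 5.43 and 6.80 at 100 mg/kg, with 10.9, 11.4 and 10.5 at 200 mg/kg. It rose at 50 mg/kg with a log2 fold change of 0.34 ± 0.11 (adjusted p = 0.0365), lost in 8 of 22 alternatives with an adjusted p of up to 0.142, fell at 100 mg/kg with a log2 fold change of -0.44 ± 0.12 (adjusted p = 0.00335), and rose at 200 mg/kg with a log2 fold change of 0.43 ± 0.11 (adjusted p = 0.00799). In this gene no library of any treated group overlapped saline.

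Zfp956 (ENSMUSG00000045466, chr6:47953390-47965300, plus strand) is the most abundant member and 1 of the 9 without a KRAB-like match. Zfp956 had 122, 115 and 114 CPM in the saline libraries, 102, 101 and 98.6 at 50 mg/kg, 108, 101 and 103 at 100 mg/kg, with 108, 107 and 104 at 200 mg/kg. All libraries of the treated groups were below all saline libraries. The changes were small: a log2 fold change of -0.22 ± 0.05 (adjusted p = 0.00233) at 50 mg/kg, and a log2 fold change of -0.17 ± 0.05 (adjusted p = 0.0043) at 100 mg/kg. At 200 mg/kg it was not called (log2 fold change -0.13 ± 0.05). Zfp932, on chromosome 5, is known together with its close copy Gm15446 for silencing endogenous retroviruses of the ERVK class in mouse embryonic stem cells. It was higher at 50 mg/kg with a log2 fold change of 0.57 ± 0.19 (adjusted p = 0.0444), but its libraries overlapped saline and the call was lost in 8 of 22 alternatives, with an adjusted p of up to 0.258. Gm15446, with which it shares 34.9% of its windows, was higher at 50 mg/kg (log2 fold change 0.91, adjusted p = 0.0197) and at 200 mg/kg (0.80, adjusted p = 0.041).

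The remaining called members were lower at 100 mg/kg, Zfp938 also at 200 mg/kg. On chromosome 8, Zfp958 fell with a log2 fold change of -0.47 ± 0.13 (adjusted p = 0.00364), Zfp930 with a log2 fold change of -0.95 ± 0.26 (adjusted p = 0.00378), and Zfp961 with a log2 fold change of -0.52 ± 0.18 (adjusted p = 0.016), the last lost without saline library 2 (adjusted p = 0.0575). Zfp938 on chromosome 10 fell at 100 mg/kg with a log2 fold change of -0.58 ± 0.15 (adjusted p = 0.00273) and at 200 mg/kg with a log2 fold change of -0.49 ± 0.15 (adjusted p = 0.029), the second lost in 4 of 22 alternatives with an adjusted p of up to 0.165. Zfp950 and Zfp952 were called in no comparison with saline, but in the test among all 4 groups, with adjusted p of 0.00574 and 0.047. Between doses, Zfp950 was lower at 100 against 50 mg/kg (log2 fold change -0.77, adjusted p = 0.00126), and Zfp952 was higher at 200 against 100 mg/kg (log2 fold change 0.55, adjusted p = 0.00946). In all, 15 of the 45 tested members were called in none of the 3 comparisons with saline, among them Zfp949, which had 17.3, 17.5 and 16.3 CPM in the saline libraries, 19.6, 19.4 and 19.02 at 50 mg/kg, 19.2, 18.3 and 17.5 at 100 mg/kg, with 18.3, 17.9 and 14.3 at 200 mg/kg.

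The doses were also compared with each other. At 100 against 50 mg/kg, 3 members were higher and 23 lower, where 51.5% of all genes were called (24.6% higher and 26.9% lower). At 200 against 100 mg/kg, 20 were higher and 2 lower, where 53.0% of all genes were called (27.8% higher and 25.2% lower). Without library 3 at 100 mg/kg these counts were 2 and 19, and 21 and 2. At 200 against 50 mg/kg, 7 of 45 members were called (15.6%), where 5.05% of all genes (2.54% higher and 2.51% lower) and 5.07% of the other Zfp genes were. Libraries of the groups did not overlap for 26 members at 100 against 50 mg/kg (58.6% of all genes), 23 at 200 against 100 mg/kg (59.3%) and 12 at 200 against 50 mg/kg (25.9%). The 7 called at 200 against 50 mg/kg were Zfp979, Zfp992 and Zfp993, higher, and Zfp990, Zfp984, Zfp943 and Zfp942, lower, so that 5 of them belong to the chromosome 4 cluster. The log2 fold changes ran from -1.21 for Zfp984 to 1.77 for Zfp993. Among members with under 20% of their windows shared, 2 of 29 were called in this comparison, and among the others 5 of 16.

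Sequence shared with other genes limits what these counts can show. Of the 59 members, 30 had under 20% of their 50-base transcript windows in another gene and 18 had at least 50%. The members with under 20% shared gave 0 higher and 15 lower of 29 at 100 mg/kg and a median of -0.44. Those with more gave 2 higher and 7 lower of 16, with a median of -0.23. Of all genes tested, 25.6% were higher and 26.8% lower at that dose. Of the 14 members under the count filter, 13 had at least 50% shared windows. Zfp935, all of whose windows occur in other genes, had 0 counts in all 12 libraries, which sets no limit on its level, since the treatment of reads that fit several genes is not stated. Zfp978 had 0, 0 and 0 counts in saline, 0, 3 and 2 at 50 mg/kg, 4, 2 and 1 at 100 mg/kg, with 7, 2 and 6 at 200 mg/kg. Zfp985 had 1, 7 and 9 counts in saline, 0, 3 and 2 at 50 mg/kg, 9, 11 and 6 at 100 mg/kg, with 1, 0 and 0 at 200 mg/kg. Zfp986 had 0, 0 and 0 counts in saline, 3, 0 and 0 at 50 mg/kg, 0, 0 and 1 at 100 mg/kg, with 2, 7 and 3 at 200 mg/kg. All 3 of these lie in the chromosome 4 cluster and were under the count filter. In a fit with no count filter, on 20095 genes, Zfp978 and Zfp986 were called higher and Zfp985 lower at 200 mg/kg (adjusted p = 0.00782, 0.0241 and 0.017), and Zfp978 higher at 100 mg/kg (adjusted p = 0.0355). That fit called 15 members at 200 mg/kg, 8 higher and 7 lower, and 34 for any difference among groups. Over its 20095 genes it called 1504 higher and 1438 lower at 200 mg/kg. The other 10 untested members, with their total counts over 12 libraries, were Zfp987 with 36, Zfp972 with 28, Zfp965 with 24, Zfp988 with 13, Zfp968 with 10, Zfp969 with 8, Zfp973 with 5, Zfp989 with 4, Zfp966 with 3 and Zfp967 with 2.

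**Figure D5:**
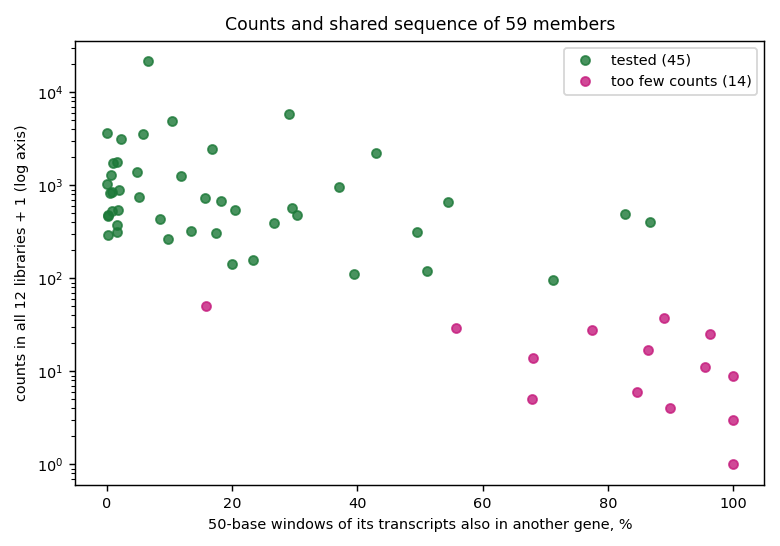
Counts in all 12 libraries plus 1 (vertical, log axis) against the share of 50-base transcript windows that also occur in another gene (horizontal axis, %) for the 59 members; green points were tested and magenta points were under the count filter. Of the 14 untested members 13 lie at 50% or above.

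The genes through which KRAB proteins act were followed in a list of 33 co-repressor and heterochromatin genes, all tested. At 50 mg/kg 3 were higher and 4 lower (9.21% and 8.02% of all genes), with a median log2 fold change of -0.04. At 100 mg/kg 5 were higher and 19 lower (25.6% and 26.8% of all genes), with a median of -0.27. At 200 mg/kg 5 were higher and 4 lower (10.3% and 8.3% of all genes), with a median of -0.02. Trim28, the co-repressor that KRAB domains bind, had 448 ± 1.45 CPM in saline, 393 ± 9.59 at 50 mg/kg, 462 ± 12.0 at 100 mg/kg and 421 ± 6.61 at 200 mg/kg (SD, n = 3 each). It was lower at 50 mg/kg (log2 fold change -0.19 ± 0.04, adjusted p = 0.00128) and not called at 100 or 200 mg/kg. Setdb1, the methyltransferase of the complex, had 63.1 ± 2.17 CPM in saline, 65.0 ± 3.48 at 50 mg/kg, 48.7 ± 7.64 at 100 mg/kg and 68.5 ± 0.24 at 200 mg/kg (SD, n = 3 each), and was lower at 100 mg/kg (log2 fold change -0.37 ± 0.08, adjusted p = 0.00023).

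Of this list the 4 genes with the smallest p at 100 mg/kg were all lower: Chd4 (log2 fold change -0.73 ± 0.06, adjusted p = 8.28e-10) and Chd3 (log2 fold change -0.50 ± 0.06, adjusted p = 4.99e-07), remodelling ATPases of the NuRD complex; Mphosph8 (log2 fold change -1.19 ± 0.09, adjusted p = 5.31e-09), a subunit of the HUSH silencing complex; and Dnmt1 (log2 fold change -0.65 ± 0.07, adjusted p = 1.36e-07), the maintenance DNA methyltransferase. At 50 mg/kg the first 4 were Ehmt2, an H3K9 methyltransferase (log2 fold change -0.23 ± 0.04, adjusted p = 0.000132), Trim28, Cbx1, a heterochromatin protein of the HP1 family and the only higher gene of these 4 (log2 fold change 0.29 ± 0.07, adjusted p = 0.00527), and Mta2 of NuRD (log2 fold change -0.21 ± 0.06, adjusted p = 0.0113), lost without saline library 3 (adjusted p = 0.0524) or library 3 at 50 mg/kg (adjusted p = 0.0867). Those at 200 mg/kg were Ehmt2 (log2 fold change -0.26 ± 0.04, adjusted p = 1.8e-05), Cbx5 (log2 fold change 0.40 ± 0.07, adjusted p = 0.000219), Cbx1 (log2 fold change 0.29 ± 0.07, adjusted p = 0.00495) and the H3K9 methyltransferase Suv39h1 (log2 fold change 0.38 ± 0.12, adjusted p = 0.0254), the last with an adjusted p of up to 0.144 in the alternatives. Without library 3 at 100 mg/kg the list gave 6 higher and 18 lower at that dose. It gave 4 higher and 9 lower at 50 mg/kg, and 5 higher and 8 lower at 200 mg/kg. Calls over all genes changed too. At 50 mg/kg they were 2093 higher and 1920 lower, against 1444 and 1257 in the main fit. At 200 mg/kg they were 2194 and 1987, against 1612 and 1302, and at 100 mg/kg 3673 and 3775, against 4010 and 4202.

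Of 17 KRAB zinc finger genes with known targets, 14 were tested: 4 were higher and 3 lower at 50 mg/kg, 1 higher and 4 lower at 100 mg/kg, and 2 higher and 1 lower at 200 mg/kg. The shares of all genes higher and lower at these doses were 9.21% and 8.02%, 25.6% and 26.8%, and 10.3% and 8.3%. Without library 3 at 100 mg/kg the 14 genes gave 4 higher and 4 lower at 50 mg/kg. They gave 0 higher and 2 lower at 100 mg/kg, and 2 higher and 2 lower at 200 mg/kg. The calls over all genes in that fit are those given above for the list of co-repressor genes. Zkscan3, known in human cells as a repressor of autophagy genes, rose at 50 mg/kg (log2 fold change 0.66 ± 0.08, adjusted p = 4.33e-06) and at 200 mg/kg (log2 fold change 0.74 ± 0.08, adjusted p = 6.47e-07). Its call at 100 mg/kg (log2 fold change 0.22 ± 0.09, adjusted p = 0.0393), also higher, was lost in 13 alternatives, with an adjusted p of up to 0.136. Zfp445, which maintains imprinted methylation, rose at 50 mg/kg (log2 fold change 0.42 ± 0.08, adjusted p = 0.000775), fell at 100 mg/kg (log2 fold change -0.66 ± 0.09, adjusted p = 1.13e-06) and rose at 200 mg/kg (log2 fold change 0.37 ± 0.08, adjusted p = 0.0028), the same order of signs as Zfp974 and Zfp940. Zfp458 fell at 50 mg/kg (log2 fold change -0.55 ± 0.16, adjusted p = 0.0186), with an adjusted p of up to 0.0997 in the alternatives, and at 100 mg/kg (log2 fold change -1.05 ± 0.17, adjusted p = 1.34e-05). Zfp69 was lower at 50 mg/kg (log2 fold change -0.35 ± 0.11, adjusted p = 0.0261), with an adjusted p of up to 0.119. Zfp568 was lower at 100 mg/kg (log2 fold change -0.47 ± 0.15, adjusted p = 0.0105), lost after the length correction (adjusted p = 0.386), and Zfp41 was lower there (log2 fold change -0.19 ± 0.07, adjusted p = 0.0175), with a change of sign to 0.18 after that correction. Zkscan17 was lower at 200 mg/kg (log2 fold change -0.13 ± 0.04, adjusted p = 0.0384), with an adjusted p of up to 0.204, and Zfp819 was not called (log2 fold change -0.32, adjusted p = 0.0559).

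Markers of testis cell types moved in the same comparisons. At 100 mg/kg, of 9 spermatocyte markers 1 was higher and 5 lower, and their summed level was 976 to 1036 CPM at 100 mg/kg, against 1507 to 1530 CPM in saline. All 7 round spermatid markers were higher there, with 1964 to 2215 CPM against 1701 to 1717 CPM, and of 8 elongating spermatid markers 6 were higher and 1 lower. Over all genes 25.6% were higher and 26.8% lower at that dose. After the length correction 1 spermatocyte marker was higher and 6 lower, 2 round spermatid markers were higher and 1 lower, and 2 elongating spermatid markers were higher and 4 lower. At 200 mg/kg 5 spermatocyte markers were lower and 1 higher (8.3% and 10.3% of all genes), with 1321 to 1343 CPM. Without library 3 at 100 mg/kg the counts of these 3 lists at that dose were the same. Of 4 tested blood markers 2 were higher at 100 mg/kg, Hba-a1 (log2 fold change 0.77 ± 0.12, adjusted p = 1.4e-05) and Hbb-bs (log2 fold change 0.97 ± 0.13, adjusted p = 6.72e-07), also after the length correction, and the list's summed level was 41.4 to 51.8 CPM there, against 31.4 to 34.3 CPM in saline. The part of these shifts in the members' values was not tested.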

How the data were processed

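RNA from frozen testis was made into polyA libraries with a TruSeq Stranded mRNA kit, per the labels' protocols. The authors deposited 1 table of raw read counts per Ensembl gene, with 1 column for each of the 12 libraries and 0 columns of other samples. Per the submitters' processing notes, the tools included STAR, featureCounts, Trimmomatic and DESeq2, and the builds mm10 and GRCm38. No source used here states versions, the annotation, strand settings or the treatment of multi-mapping reads. Without these, overlapping genes (9 members overlap another gene of the table) and near-copies are uncertain. The counts were tested with edgeR 4.0.16 (filterByExpr, TMM factors, robust quasi-likelihood fit of all 4 groups, no covariate) in R 4.3.3, with Benjamini-Hochberg adjustment over 15682 genes. CPM are counts scaled to the library's total after the count filter, multiplied by its TMM factor. The common biological coefficient of variation was 5.01%. Same-numbered libraries did not deviate together, so the main fit has no block.

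Alternatives were other normalizations and count filters, DESeq2 1.42.0, limma 3.58.1 (voom with sample weights), subsets of groups, a replicate block, a transcript length correction (lowess, span 0.3), a fold limit of 1.5 and leaving out each library. On simulated data for 50 mg/kg against saline with 15682 genes, the test called 28% of genes changed 1.2 times, 72% of those changed 1.5 times, 88% at 2 times and 100% at 4 times, and 6.49% of its calls were false. The changed genes were drawn only from those with a saline mean of at least 1 CPM, and all others were left unchanged. These shares thus do not cover members below that level, or comparisons in which many genes differ. IDs were matched to symbols, positions and transcripts of GENCODE M21 (GRCm38). The 20 members with the smallest p among 4 groups and a mean of at least 1 CPM are given in every library, other called members with their fold changes, and each other list with its counts and the 4 genes of smallest p per comparison with saline. The members and lists were chosen with earlier results of these data known. The design text gives an age of 8 months at the start, and the titles 9 months. Titles were used for replicate numbers, since descriptions repeat number 2 in some groups.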

Additional observations from a re-analysis of the deposited data

How the results depend on the processing

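Of the 43 fold changes against saline that were called, 29 kept the call in every alternative except the fold limit (3 of 8 at 50 mg/kg, 18 of 24 at 100 mg/kg and 8 of 11 at 200 mg/kg), and 0 changed sign in any of 963 repeats, of which 84 lost the call. At 50 mg/kg against saline, 5 members were called with DESeq2, 13 with limma voom and 3 with a fold of at least 1.5, where the main count was 8. Calls over all genes moved as well at that dose. DESeq2 gave 1221 higher and 1100 lower, limma voom 2141 and 2018, and the main fit 1444 and 1257. That fold limit left 5 at 200 mg/kg against saline and 4 at 200 against 50 mg/kg. Without the 100 mg/kg group, 18 members were called for any difference among groups, where the 4 groups gave 31. In that fit 9 members were higher and 3 lower at 50 mg/kg against saline, with 2087 and 1916 over all genes. Leaving out each library in turn gave 4 to 12 members at 50 mg/kg against saline, 22 to 24 at 100 mg/kg, 9 to 13 at 200 mg/kg, 21 to 27 for 100 against 50 mg/kg, 7 to 9 for 200 against 50 mg/kg, 18 to 24 for 200 against 100 mg/kg, and 27 to 31 for any difference. The causes were not tested. By library size alone, calls over all genes at 50 mg/kg were 1759 higher and 878 lower, where the TMM factors gave 1444 and 1257, and the members' calls were 9 and 2, against 6 and 2. With the replicate number as a block, counts were 6, 24 and 11 for 50, 100 and 200 mg/kg against saline, 25, 7 and 22 between doses (100 against 50, 200 against 50, 200 against 100) and 30 for any difference; the numbers are not known to pair the mice. With no count filter, 15 members were called at 200 mg/kg and 34 for any difference. Of the 20095 genes in that fit, 1504 were higher and 1438 lower at 200 mg/kg. Low counts limit the precision for many members.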

Other observations

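Markers of other testis cells were counted in the same comparisons. From the lowest to the highest dose, 9.21%, 25.6% and 10.3% of all genes tested were called higher. Those called lower made up 8.02%, 26.8% and 8.3%. Whether any of these short lists departed from the shares over all genes was not tested. Of 8 Sertoli cell markers, 0 were higher and 6 lower at 50 mg/kg, 1 higher and 4 lower at 100 mg/kg, and 0 higher and 5 lower at 200 mg/kg. Of 7 Leydig cell markers, 2 were higher and 4 lower at 50 mg/kg, while 0 were higher and 4 lower at 100 and at 200 mg/kg. Of 7 macrophage markers, 0 were higher and 1 lower at 50 mg/kg, 2 higher and 2 lower at 100 mg/kg, and 0 higher and 4 lower at 200 mg/kg. Of 8 spermatogonia markers, 0 were higher and 1 lower at 50 mg/kg, 3 higher and 2 lower at 100 mg/kg, and at 200 mg/kg edgeR, DESeq2 and limma called 0, with 0 at an unadjusted p under 0.05. Of 4 tested peritubular markers, 0 were higher and 1 lower at each dose. Of 5 endothelial markers, 1 was lower at 100 mg/kg, and edgeR, DESeq2 and limma called 0 at 50 and at 200 mg/kg, where 0 and 1 had an unadjusted p under 0.05. Of 4 tested blood markers, 1 was higher and 0 lower at 50 mg/kg, 2 higher and 0 lower at 100 mg/kg, and 1 higher and 1 lower at 200 mg/kg. Of 2 tested epididymis markers, edgeR and DESeq2 called 0 at 50 mg/kg, where 1 had an unadjusted p under 0.05 and 1 was called by limma, 1 was higher at 100 mg/kg and 1 lower at 200 mg/kg. Their part in the zinc finger genes' values was not tested.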
